A study of Mus musculus with 12 samples.

Results

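The proliferation programme of a mouse preosteoblast line was followed through 41 genes of the cell cycle and of DNA replication, listed by symbol, in RNA sequencing counts of 12 libraries. All 41 listed symbols were found among the 55291 genes of the table, and all 41 passed the filter on low counts that left 17289 genes for testing. The cells were wild-type MC3T3-E1, an established mouse preosteoblast line, kept in medium with 10% fetal bovine serum and put into bone differentiation at 2 days after confluence, which is day 0. One arm received the type I interferon IFN beta of the mouse (IFN) from the start of differentiation, at 50 mg/L as the labels give the dose. The control arm was differentiated without it. Each arm was sampled at days 0, 14 and 21 with 2 libraries a group, so the groups are IFN day 0, IFN day 14 and IFN day 21, and control day 0, control day 14 and control day 21. The labels do not say whether the IFN day 0 cells had yet been exposed, nor whether replicates were separate cultures, so each p measures a spread that may be technical.

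Proliferating cells load the Mcm2 to Mcm7 helicase onto origins in G1 with the help of Cdc6 and Cdt1, and fire those origins in S phase with the GINS complex. They copy DNA with the sliding clamp Pcna while ribonucleotide reductase and thymidylate synthase supply nucleotides. The genes for these steps are classic targets of E2F factors, which the G1 cyclins release from the retinoblastoma protein. Genes for mitosis are switched on later in the cycle through the MuvB complex with B-Myb and Foxm1. In quiescent cells the related DREAM complex silences them and binds the cell cycle homology region (CHR) element of their promoters. Osteoblast precursors multiply before they mature, and type I interferon slows the growth of many cell types. The members were read in 3 groups by role: 14 replication genes (Mcm2 to Mcm7, Pcna, Rrm1, Rrm2, Tyms, Cdc6, Cdt1, Gins1 and Gins2), 4 genes of the G1/S step (Ccnd1, Ccne1, Ccne2 and E2f1), and 23 mitotic genes (Mki67, Top2a, Ccna2, Ccnb1, Ccnb2, Cdk1, Aurka, Aurkb, Bub1, Bub1b, Plk1, Cdc20, Birc5, Kif11, Kif20a, Kif23, Cenpa, Cenpe, Cenpf, Tpx2, Nusap1, Prc1 and Foxm1). Mki67, Top2a, Ccna2 and Cdk1 also act before mitosis and were placed by the late peak of their messages.

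Promoter sequence from RefSeq (GRCm38.p6, 250 bases before to 50 after a gene's start) was matched for 31 of the 41 members, in 33 promoters because Mcm7 and Prc1 have 2 each. The 5 printed here show the letters that separate the role groups, with matches to an E2F site or to a CHR element in capitals.
Mcm5, chr8:75109259-75109558, plus strand: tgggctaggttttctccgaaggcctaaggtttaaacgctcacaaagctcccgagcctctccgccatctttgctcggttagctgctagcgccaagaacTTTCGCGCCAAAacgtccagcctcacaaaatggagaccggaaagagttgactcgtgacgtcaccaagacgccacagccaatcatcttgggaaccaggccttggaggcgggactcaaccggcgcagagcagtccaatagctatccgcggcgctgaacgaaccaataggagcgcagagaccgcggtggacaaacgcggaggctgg
Mcm6, chr1:128359656-128359955, minus strand: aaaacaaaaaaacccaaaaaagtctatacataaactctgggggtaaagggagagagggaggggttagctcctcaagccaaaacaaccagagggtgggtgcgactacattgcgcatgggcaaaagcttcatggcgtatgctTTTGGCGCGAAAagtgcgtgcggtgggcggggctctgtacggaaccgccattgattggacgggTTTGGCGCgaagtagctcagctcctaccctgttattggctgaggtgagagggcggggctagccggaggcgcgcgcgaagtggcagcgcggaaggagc
Cdk1, chr10:69352863-69353162, minus strand: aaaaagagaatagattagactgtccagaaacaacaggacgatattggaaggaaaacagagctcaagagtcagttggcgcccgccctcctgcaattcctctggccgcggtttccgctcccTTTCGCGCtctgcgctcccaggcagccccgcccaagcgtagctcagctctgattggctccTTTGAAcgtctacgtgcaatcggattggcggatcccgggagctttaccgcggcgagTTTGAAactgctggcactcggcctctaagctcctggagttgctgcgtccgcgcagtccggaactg
Plk1, chr7:122159185-122159484, plus strand: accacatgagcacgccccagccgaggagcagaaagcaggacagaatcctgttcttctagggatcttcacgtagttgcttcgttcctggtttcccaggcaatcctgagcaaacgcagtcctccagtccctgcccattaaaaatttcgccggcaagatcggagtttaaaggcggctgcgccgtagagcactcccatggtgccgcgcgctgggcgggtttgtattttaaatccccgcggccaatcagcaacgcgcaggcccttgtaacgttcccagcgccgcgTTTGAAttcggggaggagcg
Mki67, chr7:135716330-135716629, minus strand: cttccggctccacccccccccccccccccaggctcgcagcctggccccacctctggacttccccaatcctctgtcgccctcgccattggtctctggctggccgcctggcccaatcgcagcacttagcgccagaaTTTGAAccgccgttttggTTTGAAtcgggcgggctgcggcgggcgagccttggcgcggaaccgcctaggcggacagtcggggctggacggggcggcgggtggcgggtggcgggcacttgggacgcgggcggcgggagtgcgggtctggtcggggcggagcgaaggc
The E2F letters searched on both strands were TTTCCCGC, TTTGGCGC, TTTCGCGC and TTTGCCGC, the CHR letters were TTTGAA and TTCGAA, and the CCAAT box was searched as CCAAT. Matches of the E2F letters can overlap each other, as in the Mcm5 and Mcm6 promoters. An E2F match was found in 6 of 12 replication promoters (50%) and in 1 of 19 mitotic promoters (5.26%), that of Cdk1, against 2.26% of all 32851 promoters in the table. A CHR match was found in 2 of 12 replication promoters (16.7%) and in 15 of 19 mitotic promoters (78.9%), against 19.2% of all promoters. The CCAAT box was found in 9 of 12 replication promoters (75%) and 17 of 19 mitotic promoters (89.5%), against 37.4% of all. Neither of the 2 G1/S windows, Ccne1 and E2f1, held any of the 3 motifs. The E2f1 window, chr2:154569377-154569676 on the minus strand, lies inside the gene as annotated in GENCODE M21, which reaches 154569892. Sequence before that outer start of E2f1 was therefore not searched. The windows of Cdc6 and Mcm7 also lie inside their annotated genes. Promoters of other genes with these roles, taken from lists that share no gene with the members, had an E2F match in 26.7% of 45 replication and 10.9% of 46 mitotic promoters, and a CHR match in 20% and 73.9% of them. A match is a run of letters in this window and was not tested as a binding site.

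Library totals ran from 29772425 to 38908453 counts, and 20974 to 23633 genes had at least 1 count. Irf7, an interferon-induced transcription factor, followed the labels at day 14, at 719.9 and 742.1 CPM with IFN and 3.17 and 6.72 CPM in control, where CPM is the count per 1000000 counts of the scaled library size. At day 0 it was at 5.50 and 3.10 CPM in the IFN libraries and 2.83 and 2.70 CPM in control. The biological coefficient of variation was 0.0639 over the 6 IFN libraries, against 0.392 over the 6 control libraries. Control day 21 replicate 2 stood apart in the endoplasmic reticulum chaperone gene Hspa5, at 25678 CPM against 562.9 to 1828 CPM in the other libraries. The ribosomal RNA gene CT010467.1 was at 107.5 to 7244 CPM in the IFN libraries, against 99.3 to 21084 CPM in control. Its highest value was that of control day 0 replicate 1, with 1103 CPM in replicate 2, but the other control pairs split as well, at 8633 and 99.3 CPM at day 14 and 5917 and 147.6 CPM at day 21. Results are also given without control day 0 replicate 1 together with control day 21 replicate 2, called the 2 outlying control libraries, a pair chosen with earlier results of these data known. That leaves 1 control library at day 0 and 1 at day 21, each assumed to vary like the other groups. Osteoblast markers summed to 2187 to 8377 CPM in IFN and 4693 to 12109 CPM in control libraries, over 7 of 7 genes tested. Most of the sum was Col1a1 (1083 to 9729 CPM) and Sparc (890 to 2261 CPM). Median levels were 102.2 CPM for Runx2, 12.3 CPM for Sp7 and 6.59 CPM for Alpl. Bglap was at most 6.89 CPM and Ibsp was at 0 in 3 libraries. Markers of other cell types were low. Endothelial and epithelial genes summed to 2.42 to 4.47 CPM in IFN and 2.30 to 4.06 CPM in control, and adipocyte genes to at most 0.577 CPM in IFN and 1.44 CPM in control. Muscle genes summed to 3.40 to 11.96 CPM in IFN and 4.46 to 10.7 CPM in control, with Myod1 at 0 in 10 libraries. Macrophage and osteoclast genes summed to 195.4 to 528.5 CPM in IFN and 71.0 to 479.6 CPM in control, almost all of it Ctsk, while Ptprc was at 0 in 6 libraries and Adgre1 in 9. Their part in the results was not tested.

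Each member had at least 101 counts in every library, the lowest value being that of Gins1. Per kilobase of exon (GENCODE M21), the highest median levels over the 12 libraries were those of Ccnd1, the D-type cyclin that starts G1 progression, at 206.9 CPM per kb, Pcna at 70.5, Rrm1, the large subunit of ribonucleotide reductase, at 27.2, and Mcm6 at 26.9. The lowest were those of the kinesin Kif23 at 2.23, Cdc6 at 2.36, the kinetochore gene Cenpf at 2.64 and the GINS subunit Gins1 at 2.80 CPM per kb. Together the members took 0.269% to 0.382% of counts in the IFN libraries and 0.155% to 0.571% in the control libraries. In bulk RNA, fewer cycling cells and less of these messages per cell cannot be told apart.

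**Figure D1:**
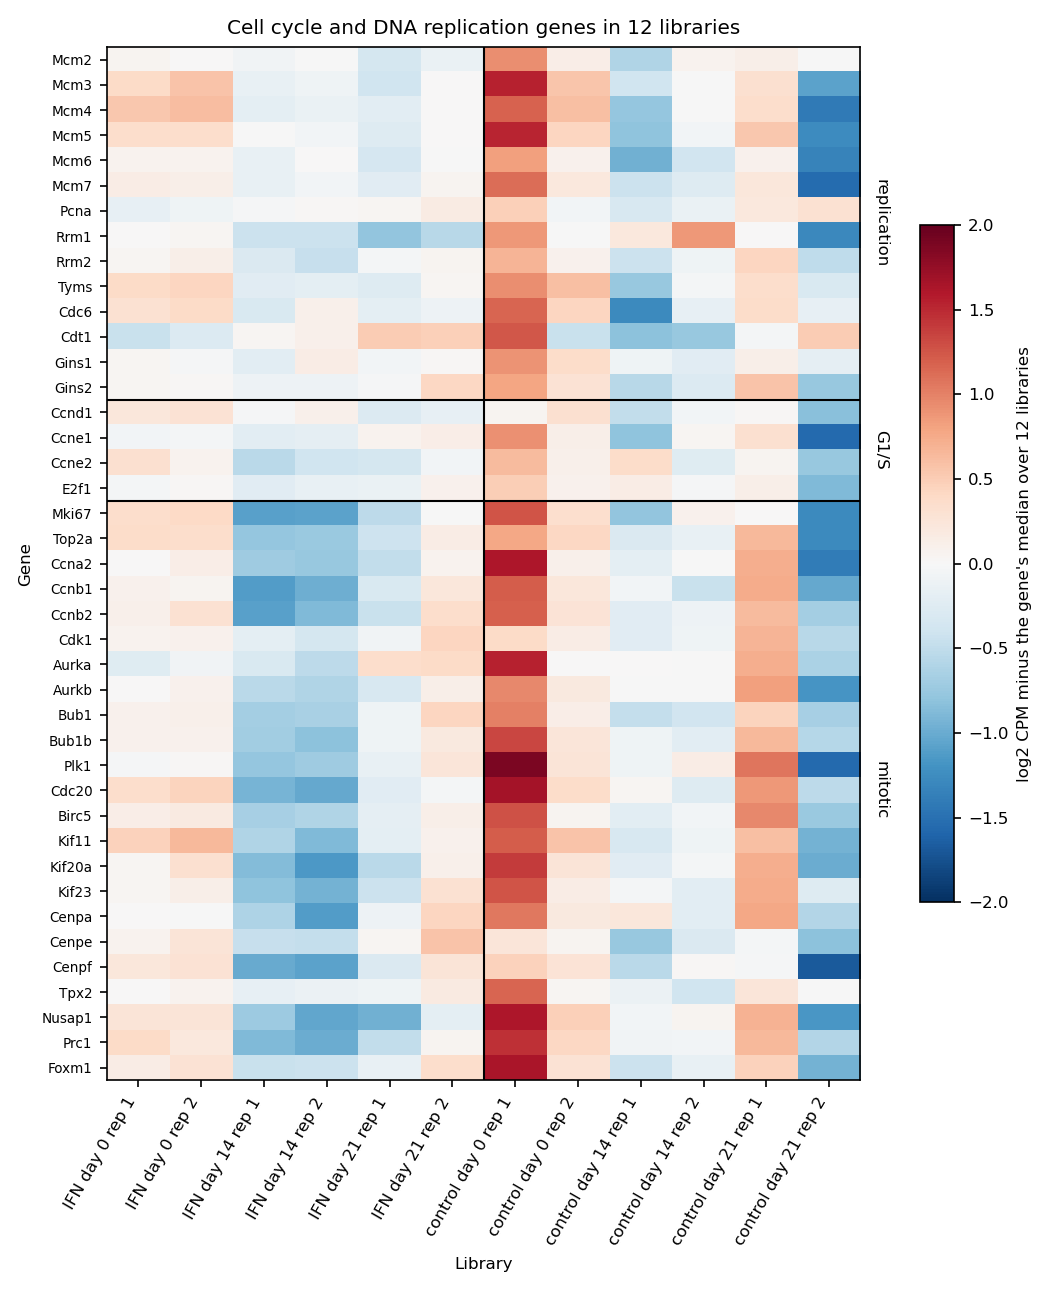
Each row is a member and each column a library; colour is the gene's log2 CPM minus its median over the 12 libraries, with IFN libraries left of control libraries. Control day 0 replicate 1 is the highest library for 38 of 41 members, control day 21 replicate 2 is the lowest for 25, and the IFN day 14 columns are blue over the mitotic block and pale over the replication block.

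Control day 0 replicate 1 is given apart because the control baseline changes with it. It was the highest of the 12 libraries for 38 of 41 members, and 40 of 41 were higher in it than in its replicate, by a median of 0.87 on the log2 scale and by 1.05 over the mitotic genes, against a median absolute difference of 0.41 over all genes tested. The mitotic kinase gene Plk1, which drives centrosome maturation and spindle assembly, stood at 20.5 and 21.4 CPM in the IFN day 0 libraries, against 77.2 CPM in this library and 25.0 CPM in its replicate. Mki67, the proliferation antigen that coats mitotic chromosomes, stood at 162.0 and 167.6 CPM in the IFN day 0 libraries, against 305.1 CPM in this library and 160.7 CPM in its replicate. Cdt1, the origin licensing factor, stood at 40.1 and 45.3 CPM in IFN day 0, against 129.1 CPM in this library and 39.9 CPM in its replicate. Replicate 2 of control day 0 thus lay near both IFN day 0 libraries for these genes, and replicate 1 above all 3. Control day 21 was split more widely and in the same direction, with 39 of 41 members higher in replicate 1 and a median difference of 1.32 (replicate 1 minus replicate 2). The IFN replicates lay closer, with medians of -0.06, -0.03 and -0.30 (replicate 1 minus replicate 2) at days 0, 14 and 21; at day 21 all 23 mitotic genes were higher in replicate 2, by a median of 0.51.

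**Figure D2:**
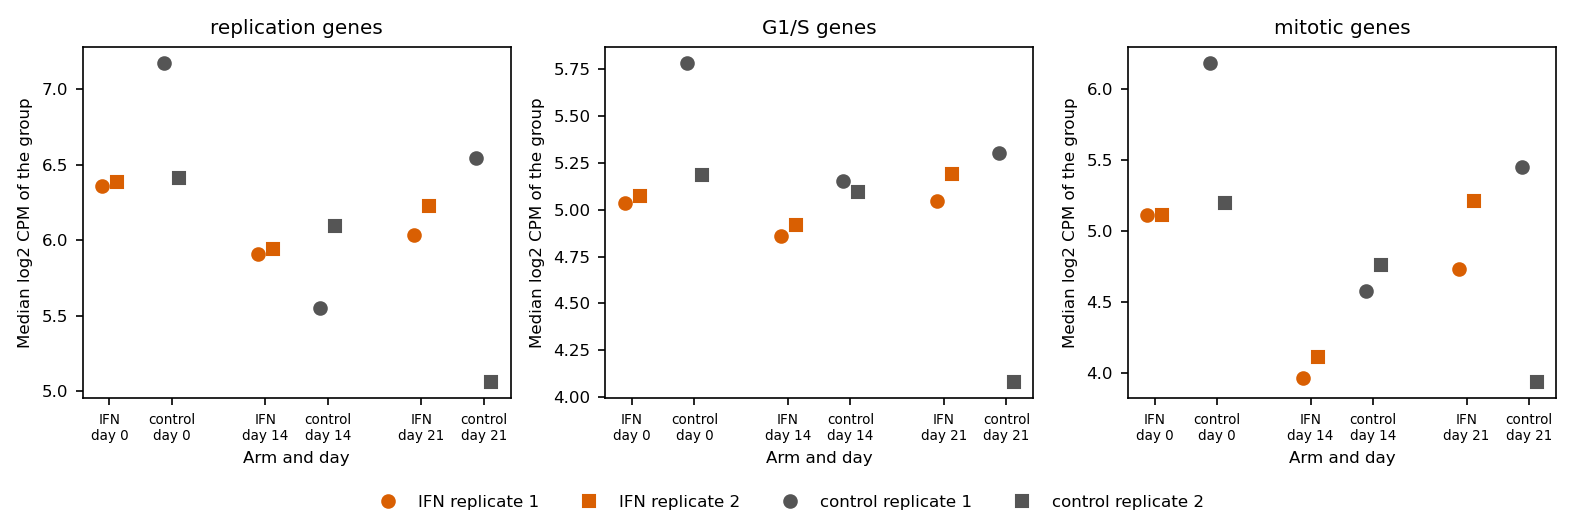
The median log2 CPM of the 14 replication, 4 G1/S and 23 mitotic genes in each library, with IFN left of control at each day and replicates as circles and squares; the vertical axes differ between panels and do not start at 0. The mitotic medians of the IFN libraries are both 5.11 at day 0. Those of day 14 are 3.97 and 4.11, and those of day 21 are 4.73 and 5.21.

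Whether IFN changed the members was asked at each day against control. At day 14 mitotic genes were lower with IFN in level: both IFN libraries lay below both control libraries for 19 of 23 mitotic genes and above them for 0, whereas of 14 replication genes 5 lay above and 1 below. None of the 41 members passed edgeR's quasi-likelihood test at an adjusted p of 0.05, where 2.29% of all 17289 genes did. Rrm1 was the 1 member with an unadjusted p below 0.05 (lower, as for 7.96% of all genes). DESeq2 called 0 and limma voom called Rrm1 lower, as it did 5.67% of all genes. Over all genes, 28.6% lay above control without overlap and 27.1% below. Fold changes are IFN over control on the log2 scale with SE, and their medians were -0.63 for the mitotic, 0.21 for the replication and -0.07 for the G1/S genes, against -0.01 for all genes.

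The cyclin B1 gene Ccnb1, the partner of Cdk1 at entry into mitosis, was at 15.6 and 17.2 CPM in IFN day 14 libraries and 32.8 and 25.0 CPM in control day 14 libraries. The groups did not overlap, with a log2 fold change of -0.82 ± 0.48 (edgeR adjusted p = 0.510). Prc1, which bundles the microtubules of the central spindle, was at 26.3 and 24.3 CPM with IFN and 46.3 and 46.5 CPM in control (-0.88 ± 0.40, adjusted p = 0.369). Cdc20, the activator of the anaphase-promoting complex, was at 12.1 and 11.3 CPM with IFN and 23.7 and 19.2 CPM in control (-0.87 ± 0.45, adjusted p = 0.434). The 3 genes were lower in both IFN libraries than in either control library, and none of the 3 differences passed the test. Mki67 was at 59.9 and 60.9 CPM with IFN and 73.9 and 134.8 CPM in control (-0.79 ± 0.43, adjusted p = 0.464), with control replicate 1 close to the IFN values. Tpx2, a spindle assembly factor, and Cenpe, a kinetochore motor, did not follow, at log2 0.11 and 0.04.

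Replication genes did not share that pattern at day 14. Cdt1 was at 56.0 and 58.3 CPM with IFN and 31.0 and 32.4 CPM in control, without overlap (0.85 ± 0.41, edgeR adjusted p = 0.392). Pcna was at 166.7 and 171.7 CPM with IFN and 135.9 and 153.5 CPM in control (0.23 ± 0.18, adjusted p = 0.659), again with both IFN libraries higher. The helicase gene Mcm5 was at 40.7 and 39.1 CPM with IFN and 23.4 and 39.2 CPM in control, where the groups overlap (0.35 ± 0.50, adjusted p = 0.824). Rrm1 went the other way, at 221.9 and 221.8 CPM with IFN and 347.1 and 546.9 CPM in control (-1.01 ± 0.40, adjusted p = 0.277), while its partner subunit Rrm2 was at 57.8 and 51.9 CPM with IFN and 52.9 and 66.9 CPM in control. Of the G1/S genes, Ccne1, cyclin E1, overlapped between the arms at 17.0 and 17.46 CPM with IFN and 11.4 and 20.4 CPM in control (0.12 ± 0.49, adjusted p = 0.950). Ccnd1 was at 957.4 and 1044 CPM with IFN and 694.3 and 934.8 CPM in control (0.30 ± 0.27, adjusted p = 0.696).

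The calls at day 14 changed with the libraries in the fit. Fitted on the 4 day 14 libraries alone, Cdt1 was called higher with IFN (0.84 ± 0.11, edgeR adjusted p = 0.0220) and Prc1 lower (-0.89 ± 0.12, adjusted p = 0.0227), where 4.01% of all genes were called, 1.89% higher and 2.12% lower. Without the 2 outlying control libraries, neither of which is a day 14 library, Cdt1 was called higher and 16 members lower, namely Rrm1 and 15 mitotic genes. That fit called 16.1% of all genes, 7.47% higher and 8.67% lower. The fold change of Cdt1 was 0.85, 0.84 and 0.84 in the 3 fits and that of Prc1 -0.88, -0.89 and -0.89. All 3 fits hold the same 4 day 14 libraries, so these values could hardly differ and are no check on each other.

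**Figure D3:**
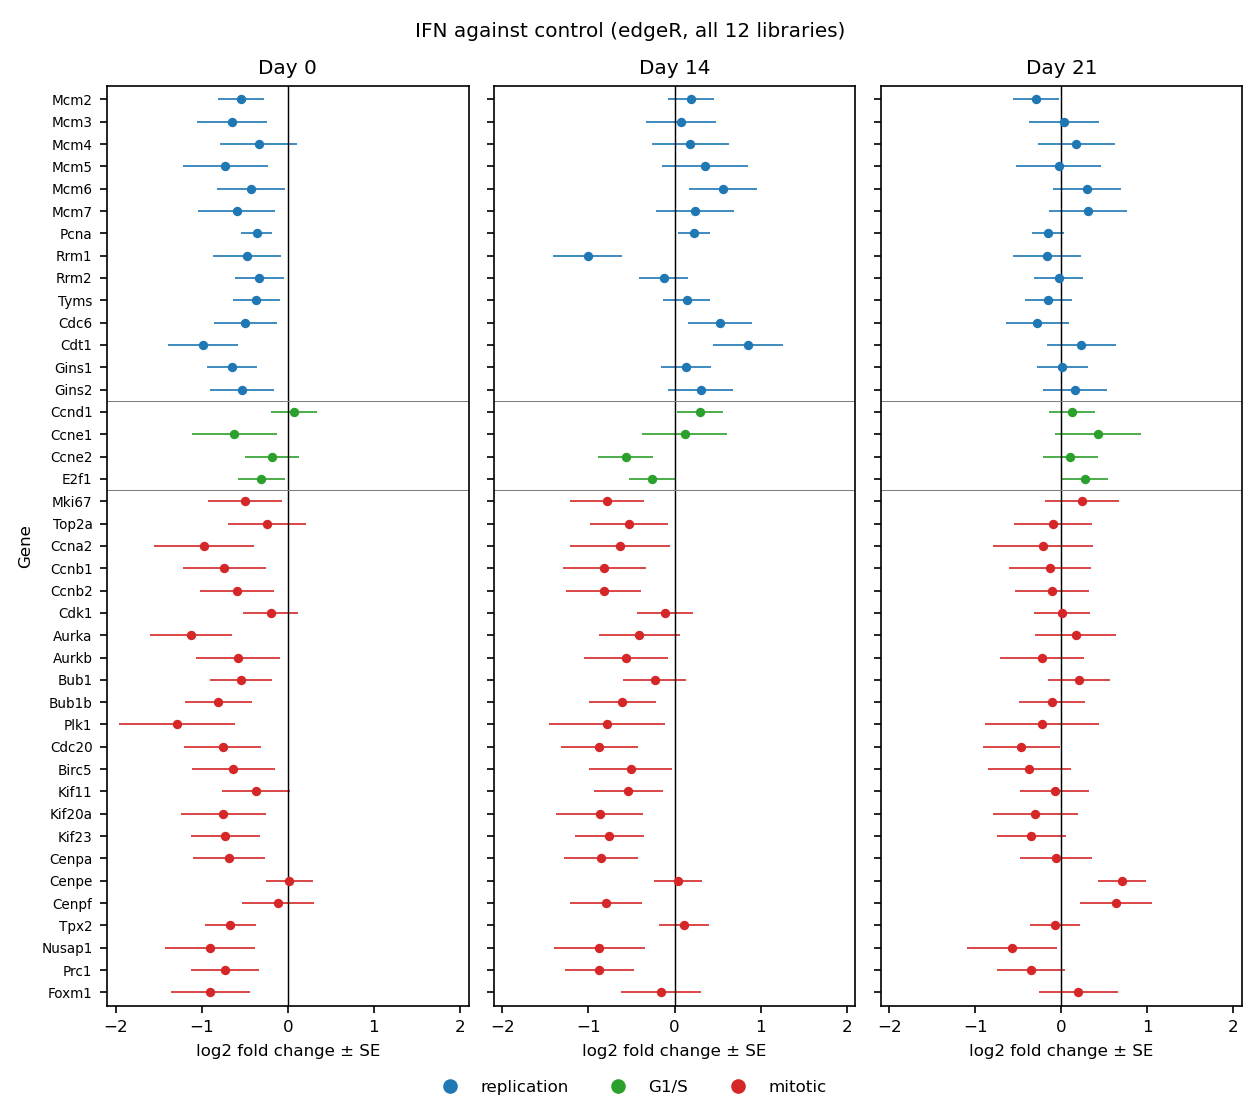
Log2 fold changes of IFN over control at days 0, 14 and 21 with their standard errors from edgeR on all 12 libraries (2 a group), coloured by role. At day 14 most mitotic genes (red) lie left of 0 and most replication genes (blue) right of it, with medians of -0.63 and 0.21; none of the 41 members passed the test on any of the 3 days.

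At day 0, 39 of 41 members had a fold change below 0, in a contrast whose control replicates differ as given above. None of the members passed edgeR's test, and 4 had an unadjusted p below 0.05, all lower (1.65% of all genes). DESeq2 and voom called 0 members, and edgeR called 0.00578% of all genes. All 14 replication genes had fold changes below 0 (median -0.51), as did 22 of 23 mitotic genes (median -0.68), and the 2 exceptions among all members were Ccnd1 and Cenpe. Both IFN libraries lay below both control libraries for 23 of 41 members, against 18.7% of all genes. For those 23 members replicate 2 of control day 0 also lay above both IFN libraries. The sizes of the fold changes rest on control day 0 replicate 1. Without the 2 outlying control libraries the medians were -0.07 for the replication and -0.06 for the mitotic genes. The fold change of Mki67 was then 0.05 in place of -0.50 ± 0.43, that of Ccnb1 -0.15, of Mcm5 -0.07, of Pcna -0.07, of Ccne1 -0.16 and of Ccnd1 -0.05. With all libraries Ccnb1 had -0.74 ± 0.48, Mcm5 -0.73 ± 0.50, Pcna -0.36 ± 0.18, Ccne1 -0.62 ± 0.49 and Ccnd1 0.07 ± 0.27 on the log2 scale, each with an edgeR adjusted p of 0.9965 or above.

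At day 21 the IFN libraries mostly lay between the 2 control libraries. Mki67 was at 88.4 and 126.3 CPM with IFN and 128.9 and 52.8 CPM in control (log2 0.24 ± 0.43, edgeR adjusted p = 0.856), and Ccnb1 at 27.6 and 39.8 CPM with IFN and 56.9 and 16.7 CPM in control (-0.13 ± 0.48, adjusted p = 0.940). Mcm5 was at 34.0 and 40.97 CPM with IFN and 59.3 and 17.1 CPM in control (-0.03 ± 0.50, adjusted p = 0.985). For these 3 genes the control range enclosed both IFN values. Pcna was at 174.0 and 189.1 CPM with IFN and 195.9 and 208.4 CPM in control (-0.16 ± 0.18, adjusted p = 0.760), without overlap. Ccne1 had 0.43 ± 0.49 and Ccnd1 0.12 ± 0.27 on the log2 scale. Cenpe was the 1 member above both control libraries, as were 20.7% of all genes, at 36.5 and 52.6 CPM with IFN and 34.5 and 20.0 CPM in control (0.71 ± 0.28, adjusted p = 0.309), and Mcm2 lay below both with Pcna, as did 18.5% of all genes. None of the members passed edgeR's test, and Cenpe alone had an unadjusted p below 0.05 (6.14% of all genes were higher at that p). DESeq2 and voom called 0 members, and edgeR called 0.995% of all genes. Without the 2 outlying control libraries, 1 control library is left at day 21. The log2 fold change was then 0.53 for Cdt1, -1.22 for Nusap1 and -1.01 for Plk1. These values depend on which control library is kept. Replicate 2, left out, was the lowest library for 25 of 41 members and was below replicate 1 for all 23 mitotic genes. Plk1 was at 18.9 and 24.7 CPM with IFN, against 43.8 CPM in the control library kept and 7.11 CPM in the one left out. Cdt1 was at 77.7 and 75.9 CPM with IFN, against 53.1 CPM in the control library kept and 77.5 CPM in the one left out.

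Within the IFN arm, where replicates were close, mitotic messages were lowest at day 14. All 23 mitotic genes were lower in both day 14 libraries than in both day 0 libraries, as were 11 of 14 replication genes and all 4 G1/S genes, while Pcna and Cdt1 were higher; over all genes 36.5% were lower without overlap and 37.9% higher. The median fold change, day 14 over day 0, was -0.84 for mitotic, -0.31 for replication and -0.20 for G1/S genes on the log2 scale, against 0.01 for all genes. With the spread shared over all 12 libraries none of the members passed edgeR's test, where 10.7% of all genes did. There were 12 members with an unadjusted p below 0.05, all lower (12.9% of all genes); DESeq2 called 6 members lower, all mitotic (8.72% of all genes). Voom called 29 lower and Cdt1 higher, where 50.5% of all genes were called, 24.8% lower and 25.7% higher.

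Mki67 showed it most, at 59.9 and 60.9 CPM at IFN day 14 and 162.0 and 167.6 CPM at IFN day 0. Its log2 fold change was -1.45 ± 0.43 (edgeR adjusted p = 0.0593), and -1.45 ± 0.05 (adjusted p = 3.97e-163) when fitted on those 4 libraries alone. The second p rests on the spread between close IFN replicates, which may be technical. Top2a, the topoisomerase that untangles sister chromatids, was at 89.4 and 91.2 CPM at day 14 and 196.3 and 194.2 CPM at day 0. The mitotic kinesin Kif11 was at 30.2 and 24.9 CPM at day 14 and 63.3 and 71.7 CPM at day 0. In the fit of the 4 libraries 34 members were called lower and 2 higher, in a comparison that called 53.6% of all genes, 26.4% lower and 27.2% higher. Those called lower were 22 of 23 mitotic genes, 9 of 14 replication genes and 3 of 4 G1/S genes. Beside Mki67 the largest fold changes among them were those of Cdc20 (-1.37), Cenpf (-1.30), Kif11 (-1.29), Prc1 (-1.24), Ccnb2 (-1.20) and Kif20a (-1.18).

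Replication genes moved less in that fit, and not as one. The helicase subunits Mcm4 (log2 -0.75), Mcm3 (-0.60), Mcm5 (-0.38), Mcm7 (-0.24) and Mcm6 (-0.15) were called lower, while Mcm2 was at 118.6 and 124.2 CPM at day 14 and 130.4 and 126.0 CPM at day 0 and was not called. The nucleotide genes Tyms (-0.63), Rrm2 (-0.46) and Rrm1 (-0.46) and the loader Cdc6 (-0.44) were lower. Cdt1, at 56.0 and 58.3 CPM at day 14 and 40.1 and 45.3 CPM at day 0, was called higher (0.42 ± 0.07, edgeR adjusted p = 2.00e-08), as was Pcna, at 166.7 and 171.7 CPM at day 14 and 151.0 and 159.1 CPM at day 0 (0.12 ± 0.05, adjusted p = 0.0168). Gins1, Gins2, Ccne1 and Aurka were not called.

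From day 14 the mitotic genes of the IFN arm were higher again at day 21. Both day 21 libraries lay above both day 14 libraries for 22 of 23 mitotic genes, 4 of 14 replication genes and 3 of 4 G1/S genes, against 30.5% of all genes, and below them for 3 of 41 members, against 29.6% of all genes. The median fold changes, day 21 over day 14, were 0.79, 0.01 and 0.23 on the log2 scale. None of the members passed edgeR's test, 5 had an unadjusted p below 0.05, all higher (4.44% of all genes), and 0% of all genes were called. DESeq2 called 0 members and voom 19, all higher (9.75% of all genes). Ccnb1 was at 27.6 and 39.8 CPM at IFN day 21 and 15.6 and 17.2 CPM at IFN day 14, and Cenpf at 33.3 and 48.8 CPM at day 21 and 20.3 and 19.4 CPM at day 14. On those 4 libraries alone 20 members were called higher, among them 18 mitotic genes with Ccnb1 (1.03 ± 0.14, edgeR adjusted p = 4.75e-05) and Cenpf (1.03 ± 0.15, adjusted p = 0.000491), and Mcm2, Rrm1 and Ccnd1 were called lower, where 26.1% of all genes were called. Cdt1 was higher still at day 21, at 77.7 and 75.9 CPM. Ccnd1 was lower still, at 806.2 and 865.8 CPM at day 21, after 957.4 and 1044 CPM at day 14 and 1139 and 1192 CPM at day 0.

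Between day 21 and day 0 of the IFN arm the mitotic median fold change was -0.13 and the replication median -0.26 on the log2 scale. Both day 21 libraries lay above both day 0 libraries for 4 members (36.9% of all genes) and below them for 18 (35.8%). None of the members passed edgeR's test or had an unadjusted p below 0.05, DESeq2 called 0, voom 13 lower and 3 higher (46.1% of all genes called), and 10.2% of all genes were called by edgeR. On those 4 libraries alone 13 members were called lower and 3 higher (Cdt1, Pcna and Aurka), where 48.1% of all genes were called, 22.9% lower and 25.2% higher. Of the 13 members called lower, 8 were replication genes, led by Rrm1 (-0.68) and Mcm4 (-0.67), 2 were G1/S genes and 3 were the mitotic genes Nusap1, Kif11 and Cdc20.

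**Figure D4:**
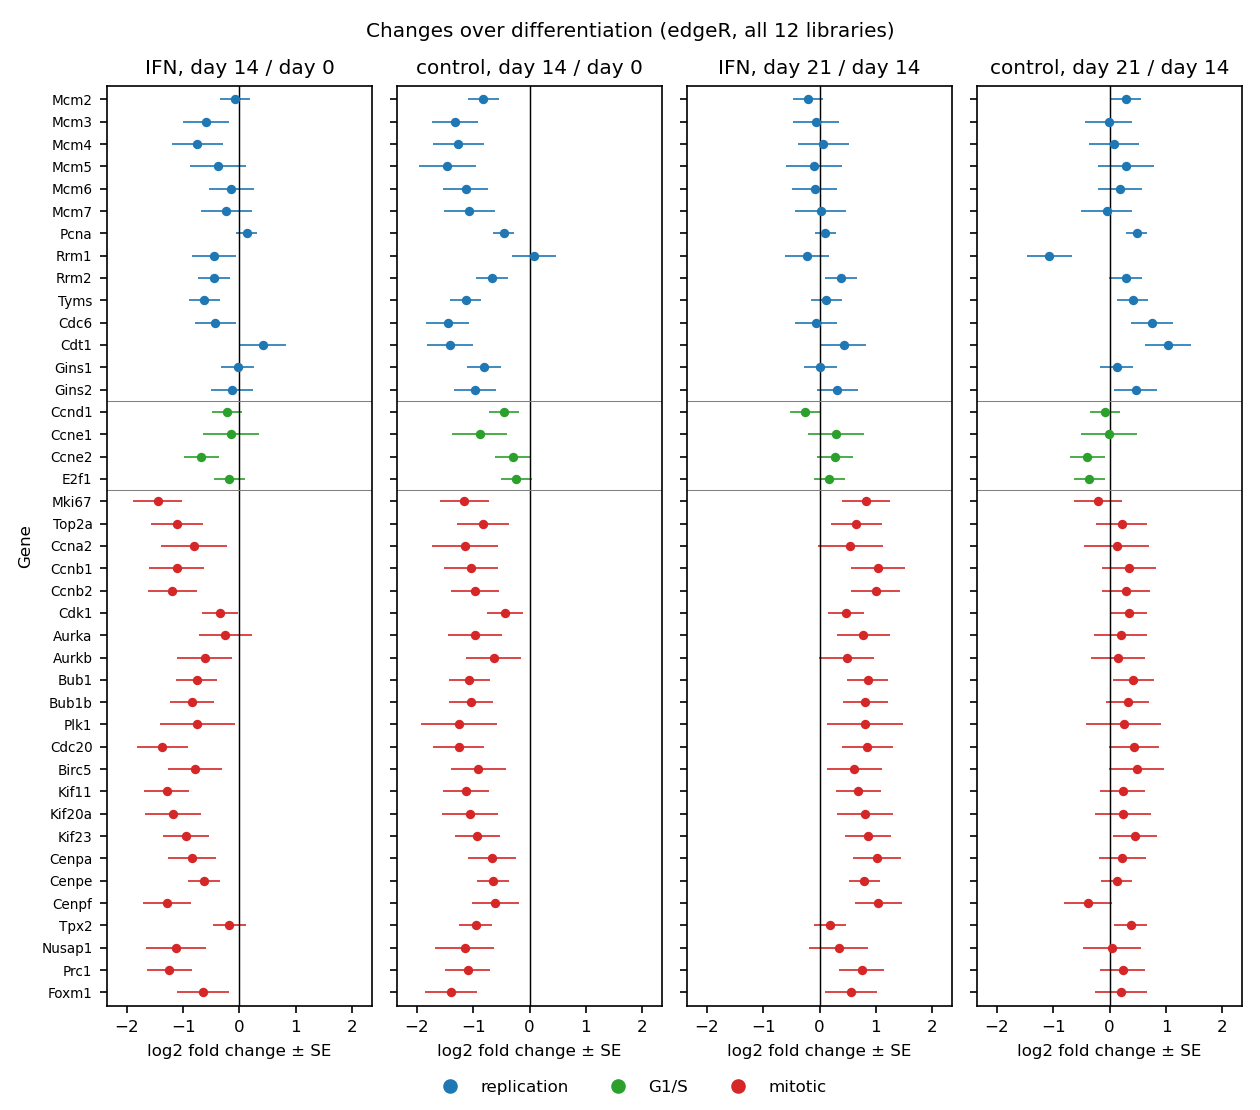
Log2 fold changes of day 14 over day 0 and of day 21 over day 14 in each arm, with standard errors from edgeR on all 12 libraries (2 a group), IFN left of control in each pair of panels. In the IFN arm the mitotic genes (red) lie left of 0 at day 14 and right of it from day 14 to day 21, with medians of -0.84 and 0.79, while in control replication and mitotic genes lie left of 0 together at day 14, with medians of -1.10 and -1.03.

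In the control arm both role groups were lower at day 14 than at day 0. The median fold change, day 14 over day 0, was -1.10 for the 14 replication, -1.03 for the 23 mitotic and -0.37 for the 4 G1/S genes on the log2 scale, against 0.00 for all genes, and 36 of 41 members were lower without overlap, against 21.1% of all genes. Without the 2 outlying control libraries the medians were -0.59, -0.41 and -0.20 in the same order. None of the members passed edgeR's test, 24 had an unadjusted p below 0.05, all lower (7.80% of all genes). DESeq2 called 7 lower (3.10% of all genes) and voom 1, Tyms (0.937% of all genes lower), and edgeR called 2.38% of all genes. Tyms, thymidylate synthase, was at 16.0 and 26.2 CPM at control day 14 and 51.3 and 40.96 CPM at control day 0 (-1.13 ± 0.28, adjusted p = 0.0671), and Cdc6 at 5.10 and 11.0 CPM at day 14 and 27.5 and 16.6 CPM at day 0 (-1.46 ± 0.37, adjusted p = 0.0779). Without the 2 outlying control libraries the calls were 4 lower, Mcm3 (-0.72), Mcm7 (-0.52), Tyms (-0.94) and Kif11 (-0.74), where 5.32% of all genes were called lower. Rrm1 did not follow, at 347.1 and 546.9 CPM at day 14 and 547.6 and 298.8 CPM at day 0.

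At control day 21 most members differed widely between the replicates, while Pcna did not. Against day 14, none of the members passed edgeR's test, and 3 had an unadjusted p below 0.05 (Pcna and Cdt1 higher, as for 9.83% of all genes, and Rrm1 lower, as for 7.95%). There were 4 members higher without overlap (17.8% of all genes) and 1, Rrm1, lower (19.7%). DESeq2 and voom called 0 members, and edgeR called 0.0289% of all genes. Pcna was at 195.9 and 208.4 CPM at control day 21 and 135.9 and 153.5 CPM at control day 14 (log2 0.48 ± 0.18, adjusted p = 0.223). Against day 0, 11 members were lower without overlap (21.4% of all genes), none passed, and 12 had an unadjusted p below 0.05, all lower (12.1% of all genes). DESeq2 called Mcm3 and Mki67 lower (6.25% of all genes), voom called 0 and edgeR called 6.44% of all genes. Without the 2 outlying control libraries, the log2 fold change of control day 21 over day 14 was 1.08 for Birc5, a subunit of the chromosomal passenger complex, and 1.02 for Plk1. This control day 21 group is then 1 library, replicate 1, assumed to vary like the others. Replicate 2, left out, was the lower for all 23 mitotic genes. Plk1 was at 43.8 CPM in replicate 1 and 7.11 CPM in replicate 2 of control day 21, and at 19.8 and 23.1 CPM at control day 14.

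The difference between the arms in their change from day 0 was tested directly and no member passed. To day 14 the median change of the IFN effect was 0.76 for replication genes on the log2 scale, with 13 of 14 above 0. For mitotic genes it was 0.02, with 12 above 0 and 11 below. To day 21 both medians were 0.59, and all 41 members were above 0, against 8650 of 17289 genes. These medians include control day 0 replicate 1 and carry no test. From day 0 to day 14 the largest value was that of Cdt1, whose IFN effect changed by 1.83 ± 0.58 on the log2 scale (edgeR adjusted p = 0.274). Cdt1 and Pcna (0.59 ± 0.26, adjusted p = 0.439) were the 2 members with an unadjusted p below 0.05, both higher (5.37% of all genes), while Mcm5 had 1.08 ± 0.70 (adjusted p = 0.623). DESeq2 called 0 and voom 1, Cdt1 (1.49% of all genes higher), and edgeR called 0.596% of all genes. Without the 2 outlying control libraries the value for Cdt1 was 0.73 (adjusted p = 0.0283, with 1.75% of all genes called higher) in place of 1.83. From day 0 to day 21 no member had an unadjusted p below 0.05, DESeq2 and voom called 0, edgeR called 0.0925% of all genes, and Cdt1 again had the lowest adjusted p (1.22 ± 0.57, adjusted p = 0.616).

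The balance of replication over mitotic messages set the IFN day 14 libraries apart. The median log2 CPM of the 14 replication genes minus that of the 23 mitotic genes was 1.94 and 1.83 in the IFN day 14 libraries and 0.97 to 1.33 in the other 10 libraries, which include control day 0 replicate 1 (0.99) and control day 21 replicate 2 (1.13). The same difference in other genes of these roles, 42 for replication and 50 for mitosis, was 0.41 in both IFN day 14 libraries and -0.35 to 0.04 in the other 10. In the control arm the replication median ranged from 5.06 to 7.17 and the mitotic median from 3.94 to 6.18, while this balance stayed within 0.97 to 1.33. It is a description over 12 libraries, with no test, and the 2 lists share the roles that define them.

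**Figure D5:**
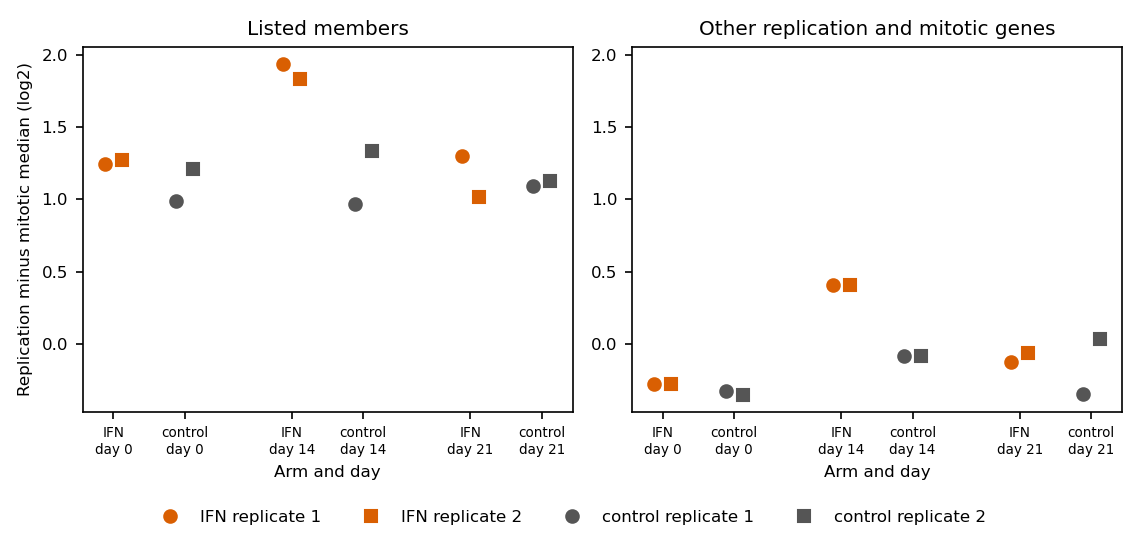
Each point is a library; the vertical axis is the median log2 CPM of replication genes minus that of mitotic genes, for the 41 members' role groups (left) and for other genes of the same roles (right), with IFN left of control at each day. The IFN day 14 libraries lie at 1.83 and 1.94 on the left, above the 0.97 to 1.33 of the other libraries, and at 0.41 on the right, above -0.35 to 0.04.

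The surrounding pathway was read in 4 further lists: 42 other replication genes, 50 other mitotic genes, 17 G1 cyclins, kinases and E2F factors, and 24 CDK inhibitors, pocket proteins and quiescence genes, of which 21 could be tested. At day 14 IFN against control, 0 of the first 3 lists were called in either direction and 2 of the 21 were called lower, where 1.30% of all genes were called higher and 0.995% lower. These were Gas1, a growth-arrest gene of quiescent fibroblasts, at 92.0 and 66.7 CPM with IFN and 353.9 and 375.0 CPM in control (-2.20 ± 0.44, edgeR adjusted p = 0.0275), and Gas6, the ligand of the Axl receptor family (-1.51 ± 0.33, adjusted p = 0.0402). The list medians were 0.09, -0.35, 0.12 and -0.09 on the log2 scale in the order given. At day 0 and at day 21 no gene of the 4 lists was called between the arms.

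Over time in the IFN arm, day 14 against day 0, 1 of 50 other mitotic genes was called higher and 4 lower, and 0 of 42 other replication genes were called, where 5.18% of all genes were called higher and 5.56% lower. The list medians were -0.90 and -0.34 on the log2 scale. The 4 lower were Knl1, Anln, Cdc25c and Sgo2a, between -1.16 and -1.19, and the higher one was Wee1 (1.26 ± 0.27), the kinase that holds Cdk1 inactive. Of 17 G1 genes E2f6, a repressor of the E2F family, was higher (1.25 ± 0.35). Of the 21 CDK inhibitor and quiescence genes 4 fell and 2 rose, against the same shares of all genes. Cdkn2c, the Cdk4 and Cdk6 inhibitor p18, was at 27.7 and 25.2 CPM at IFN day 14 and 83.7 and 94.1 CPM at IFN day 0 (-1.75 ± 0.29, edgeR adjusted p = 0.00437), and Cdkn1b, the inhibitor p27, at 60.3 and 59.5 CPM at day 14 and 130.4 and 133.3 CPM at day 0 (-1.14 ± 0.24, adjusted p = 0.0132). Rb1 (-0.85) and Gas1 (-1.71) were also lower, and Mdm2 (1.11) and the antiproliferative gene Btg1 (0.80) higher. At day 21 against day 0 of this arm Btg1 (1.58), Mdm2 (1.55) and Dut (1.36), the dUTPase, rose, and Cdkn1b (-1.25), Cdkn2c (-1.29) and Slbp (-0.53) fell, where 5.88% of all genes were called higher and 4.31% lower.

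In control, Slbp, Prim1 and Lin54 were called lower at day 14 than at day 0, at -0.95, -1.04 and -0.95 on the log2 scale, where 0.827% of all genes were called lower. At control day 21 against day 0, Btg1 (1.32) and Dut (1.36) rose, and Prim1 (-0.95), Knl1 (-1.21), Cdk4 (-0.67) and Lin54 (-0.82) fell, where 3.82% of all genes were called higher and 2.63% lower. Between day 21 and day 14 no gene of the 4 lists was called in either arm. Cdkn1a, the p53 target p21, was at 544.0 to 617.5 CPM in the IFN libraries and 532.6 to 846.0 CPM in control and was called in none of the 11 comparisons. Cdkn2a and Cdkn2b, the INK4 inhibitors p16 and p15, had 0 counts in all 12 libraries, where 3 counts in the smallest library would be 0.101 CPM, and Cdkn1c, p57, had 9 counts in all, with 0 in 9 libraries.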

How the data were processed

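Gene counts of 12 libraries were used as the authors deposited them: raw counts of reads per gene, made with HISAT2 on mm10, SAMtools and featureCounts per the submitters' processing notes, without versions. The annotation and the use of strand are not given in the sources used here, so values of overlapping genes are uncertain. Messenger RNA was purified with beads from at least 3 µg of RNA per the labels' protocols. Columns named NC were read as the control arm; names of arm, replicate number and day matched each column to 1 sample.

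In R 4.3.3, edgeR 4.0.16 was fitted with 1 mean for each of the 6 groups: filterByExpr, TMM scaling and the robust quasi-likelihood test, on 6 residual degrees of freedom. Adjusted p-values (Benjamini-Hochberg) cover all 17289 genes, and "called" means an adjusted p below 0.05. CPM uses TMM-scaled library sizes, and log2 CPM a prior count of 2. There were 11 comparisons. The alternatives were RLE scaling, DESeq2 1.42.0, no filter beyond at least 1 count, a fit with only the groups compared (filtered again on those libraries), a replicate block, limma 3.58.1 voom with library weights, a fit leaving out both outlying control libraries (replicate 1 of day 0, replicate 2 of day 21), and each of the 12 libraries left out; where a group is left with 1 library, it is assumed to vary like the others. Only the edgeR fit was run on simulated counts, for IFN against control at day 14. A pass was required there only at a low spread, not at that estimated from these data. The alternatives were not tested that way. A gene's groups do not overlap when both libraries of one lie beyond both of the other. Median fold changes describe lists and carry no test.

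The members, the lists and the rule for named genes were chosen with earlier results of these data known. That rule allows levels of all 41 members, gives Mki67, Ccnb1, Mcm5, Pcna, Ccne1 and Ccnd1 in each IFN comparison, and takes up to 4 called genes per list; other members shown in full, and Hspa5 and CT010467.1, were chosen after their values were seen. Same-numbered libraries deviated together little (15 pairs, r from -0.05 to 0.11, 2 above 0.1), and the main fit did not pair libraries by number. The highest r were those of the control groups with each other, at 0.107, 0.080 and 0.110, against at most 0.021 in the other pairs. CT010467.1 was also higher in the same-numbered library of each control group, while in each IFN group it was higher in the other library. Whether same-numbered control libraries shared their handling was not tested. No 2 replicates of the same group agreed within sampling noise. Their chi-square per degree of freedom ran from 5.13 to 8.97 in the IFN groups and from 122 to 424 in the control groups.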

Additional observations from a re-analysis of the deposited data

Results flagged for a closer look

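Pcna, the sliding clamp of DNA polymerases, lay above control in both IFN libraries at day 14 (166.7 and 171.7 CPM with IFN, 135.9 and 153.5 CPM in control) and below control in both at day 21 (174.0 and 189.1 CPM with IFN, 195.9 and 208.4 CPM in control). The IFN effect at day 21 minus that at day 14 was -0.38 on the log2 scale. It stands here because the samples moved in opposite directions on the 2 days; the difference was not tested, and neither day passed the test by itself.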

How the results depend on the processing

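Against 0 members called, RLE scaling and the replicate block called 0 in all 11 comparisons. Without the low-count filter, the calls were 4, 6 and 0 for IFN against control at days 0, 14 and 21, 27, 2 and 17 for control day 14 against 0, 21 against 14 and 21 against 0, 15, 2 and 2 for the same steps with IFN, and 1 for each change of the IFN effect. With only the groups compared they were 2 for IFN against control at day 14 and 36, 23 and 16 for the steps with IFN. DESeq2 called 7 and 2 for control days 14 and 21 against day 0 and 6 for IFN day 14 against day 0. Voom called 1 for IFN against control at day 14, 1 for the control step to day 14, 30, 19 and 16 for the steps with IFN, and 1 for the change at day 14. Without both outlying control libraries the calls were 17 and 8 for IFN against control at days 14 and 21, 4, 14 and 3 for the control steps, 26, 12 and 8 for the IFN steps, and 1 for the change at day 14; the 3 set 1 library against 1. No share over all genes is given for the fits without the filter or with 1 library left out. Their counts show how calls moved with the processing and are not read as a result about the members. The cause of these differences was not tested.

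With each library left out in turn, calls ran from 0 to 1, 0 to 1 and 0 to 12 for IFN against control at days 0, 14 and 21, 0 to 12, 0 to 8 and 0 to 34 for the control steps, 0 to 10 for IFN day 14 against day 0, 0 to 1 for IFN day 21 against day 0, and 0 to 2 and 0 to 13 for the changes at days 14 and 21. The 12, 8, 34 and 13 came without control day 21 replicate 1, when that group is the library high in Hspa5.

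Directions of named members changed as follows, on the log2 scale. Without both outlying control libraries, IFN against control at day 0 was 0.045 for Mki67 and -0.050 for Ccnd1; at day 21 it was -0.26 for Mki67, -0.22 for Ccne1 and -0.24 for Ccnd1; E2f1 was 0.045 for control day 21 against day 14. At day 21 the replicate block gave 0.020 for Ccnb1 and 0.069 for Mcm5, and voom 0.024 and 0.15. Leaving out 1 library, the day 0 values ran from -0.89 to 0.037 for Mki67 and from -0.058 to 0.20 for Ccnd1, and the day 14 value of Ccne1 from -0.24 to 0.60. The day 21 values ran from -0.28 to 1.01 for Mki67, -0.77 to 1.001 for Ccnb1, -0.67 to 1.12 for Mcm5, -0.23 to 1.64 for Ccne1 and -0.26 to 0.60 for Ccnd1. E2f1 ran from -0.93 to 0.050 for control day 21 against day 14.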
